A study of Mus musculus with 12 samples.

Results

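The BCL2 family sets the threshold at which a cell commits to death through its mitochondria. Its survival members, Bcl2, Bcl2l1 (which encodes BCL-XL) and Mcl1, hold the pore-forming effectors Bax and Bak1 in check at the outer mitochondrial membrane. BH3-only members, here Bcl2l11 (BIM), Bad, Bid, Bbc3 (PUMA) and Pmaip1 (NOXA), are activated by stress or by loss of trophic signals and either occupy the survival proteins or activate the effectors. Once BAX or BAK1 forms pores, cytochrome c leaves the mitochondria and the apoptosome activates caspases. In the retina the family is known for its part in the death of neurons during development, and it has been studied in the degeneration of photoreceptors.

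The family was represented by 10 genes listed by name: 3 survival genes, 2 effectors and 5 BH3-only genes. Each was read from the brightest probe that names it and no other gene, and 9 of the 10 had such a probe, 1 each, among 19902 genes measured. Bax was not analysed here. The levels come from 12 Affymetrix mouse arrays, 1 per sample of fluorescence-sorted retinal cones of the C3H strain (C3H/HeNCrl), whose Pde6b rd1 allele kills the rods early in life and leaves cones that no longer respond to light and are slowly lost. Every animal received an adeno-associated virus under the retina at a young age, in which a promoter of mouse cone arrestin, the gene Arr3, drove the transgene. The 3 groups of 4 arrays were cones with EGFP (mCAR-EGFP) at 110 days of age, cones with EGFP at 220 days, and cones with eNpHR-EYFP (mCAR-eNpHR-EYFP) at 165 days. EGFP is the control, and eNpHR-EYFP is halorhodopsin, a chloride pump that light drives, joined to the yellow protein EYFP, and serves as the light sensor. The EGFP arrays were made from 500 sorted cells each and the eNpHR-EYFP arrays from 300. Construct, number of cells and age therefore cannot be told apart in any comparison of eNpHR-EYFP with EGFP. Because a sort is a bulk sample, fewer cells of a type and less RNA per cell cannot be told apart either. The labels call the 4 arrays of a group biological replicates and do not say how many animals each array holds.

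The median probe on each array had a log2 intensity of 2.72 to 2.83, while the 95th percentile of the intensity lay between 114.70 and 134.86 with EGFP and between 173.23 and 185.96 with eNpHR-EYFP. Bright probes thus sit higher on the eNpHR-EYFP arrays as deposited, and quantile normalization removes this difference. For the members and the family and pathway genes named below, values under quantile normalization are given where they end a call or turn a direction. Cone genes were present in every group: Arr3 averaged 7.11 on the log2 scale at 110 days, 7.93 at 220 days and 10.15 with eNpHR-EYFP, and the EGFP arrays spread widely, with replicates 1 and 4 at 110 days at 4.58 and 5.29. By their mean over all arrays, 5 of the 9 members (Bcl2, Bcl2l1, Mcl1, Bad and Pmaip1) lay above the median probe, and 4 lay below it (Bak1, Bcl2l11, Bid and Bbc3). Bcl2l1 lay above it only through the eNpHR-EYFP arrays, since on 7 of the 8 EGFP arrays its intensity was below the array's median, and it is dim there like those 4. Without detection values it is not known which of the dim probes exceed background, and for these the log2 differences are likely to be understated. Probe intensity also depends on the probe's own sequence, so levels are compared between groups within a gene and not between genes.

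Promoter windows of the members that the results turn on are shown first. RefSeq windows on GRCm38.p6, from 250 bases before a transcript start to 50 after it, were matched for 9 of the 10 members, in 15 windows. Those below are the first window of Bcl2l1 and of Bad, which were higher with eNpHR-EYFP, the window of Mcl1 and the second window of Bbc3, which were lower, and the first window of Bcl2l11, which shares a forkhead match with Bbc3. Capitals mark every match on either strand to TAATCC (a homeobox core of the kind CRX binds), GTAAACA (forkhead), TGATGNAA (a composite of ATF4 and C/EBP), TGACGTCA (the cAMP response element), CACGTG (E-box) and GGGCGG (GC box). In the order given they are Bcl2l1 at chr2:152828440-152828739 on the minus strand, Bad at chr19:6941611-6941910, Mcl1 at chr3:95658471-95658770, Bbc3 at chr7:16310011-16310310 and Bcl2l11 at chr2:128125788-128126087, the last 4 on the plus strand.
Bcl2l1: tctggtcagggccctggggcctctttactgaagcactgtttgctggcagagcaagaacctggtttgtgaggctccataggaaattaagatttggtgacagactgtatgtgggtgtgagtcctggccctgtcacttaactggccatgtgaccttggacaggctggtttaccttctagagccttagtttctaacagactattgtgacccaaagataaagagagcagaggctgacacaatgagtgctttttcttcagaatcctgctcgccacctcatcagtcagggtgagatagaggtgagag
Bad: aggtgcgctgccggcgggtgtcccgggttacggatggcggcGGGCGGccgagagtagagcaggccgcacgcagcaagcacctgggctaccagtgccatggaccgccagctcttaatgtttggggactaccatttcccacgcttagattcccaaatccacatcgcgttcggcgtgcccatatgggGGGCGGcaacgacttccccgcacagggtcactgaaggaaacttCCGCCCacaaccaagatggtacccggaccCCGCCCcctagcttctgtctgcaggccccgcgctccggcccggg
Mcl1: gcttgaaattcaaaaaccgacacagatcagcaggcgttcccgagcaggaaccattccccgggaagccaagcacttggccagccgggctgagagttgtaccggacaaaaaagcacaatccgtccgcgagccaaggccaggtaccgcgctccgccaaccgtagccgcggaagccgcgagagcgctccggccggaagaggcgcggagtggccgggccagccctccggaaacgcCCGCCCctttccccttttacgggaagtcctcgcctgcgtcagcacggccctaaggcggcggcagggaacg
Bbc3: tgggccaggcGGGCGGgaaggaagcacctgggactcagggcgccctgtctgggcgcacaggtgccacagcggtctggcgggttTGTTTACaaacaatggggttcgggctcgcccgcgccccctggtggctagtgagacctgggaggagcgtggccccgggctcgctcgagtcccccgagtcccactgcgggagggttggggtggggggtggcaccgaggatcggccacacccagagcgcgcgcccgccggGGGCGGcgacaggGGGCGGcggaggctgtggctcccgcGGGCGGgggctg
Bcl2l11: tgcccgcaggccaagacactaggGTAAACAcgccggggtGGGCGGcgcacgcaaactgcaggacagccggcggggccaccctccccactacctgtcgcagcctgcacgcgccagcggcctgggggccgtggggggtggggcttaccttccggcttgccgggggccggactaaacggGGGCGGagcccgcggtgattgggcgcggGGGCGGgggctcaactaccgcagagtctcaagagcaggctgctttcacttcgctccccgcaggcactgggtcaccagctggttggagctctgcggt

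The Bcl2l1 window has no capitals, and none of the 6 motifs was matched in any of its 3 windows. The first Bad window holds 4 GC boxes and the Mcl1 window 1, while the second Bad window holds 0. GTAAACA was matched in 2 of the 15 windows, the first of Bcl2l11 and the second of Bbc3, both genes known as targets of forkhead factors. Over all 32851 windows of the same length, 3.65% hold GTAAACA, 7.06% TAATCC, 3.97% TGATGNAA, 1.79% TGACGTCA, 7.15% CACGTG and 35.7% GGGCGG. The windows of 250 bases before the start are short, and a match or its absence in these letters describes the window alone. Pmaip1 was not matched.

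Among the survival genes, Bcl2l1 was higher and Mcl1 lower in eNpHR-EYFP cones than in EGFP cones, and Bcl2 did not pass the test. Among the BH3-only genes, Bad was higher and Bbc3 lower, and Bcl2l11, Bid and Pmaip1 did not pass. In limma with Benjamini-Hochberg adjustment, at an adjusted p under 0.05 against the mean of both EGFP ages, 2 of 9 members were higher, 2 lower and 5 did not pass, where 33.1% of all genes were called. Of all genes 23.0% were called higher and 10.1% lower, so 4 called members of 9 is a share near the background. The median difference over the 9 members was 0.01 on the log2 scale, against 0.07 over all genes. In 3 of 9 members the 4 eNpHR-EYFP arrays did not overlap the 8 EGFP arrays, Bcl2l1 and Bad lying above them and Mcl1 below, where 20.3% of all genes were so placed (14.2% above and 6.15% below).

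**Figure D1:**
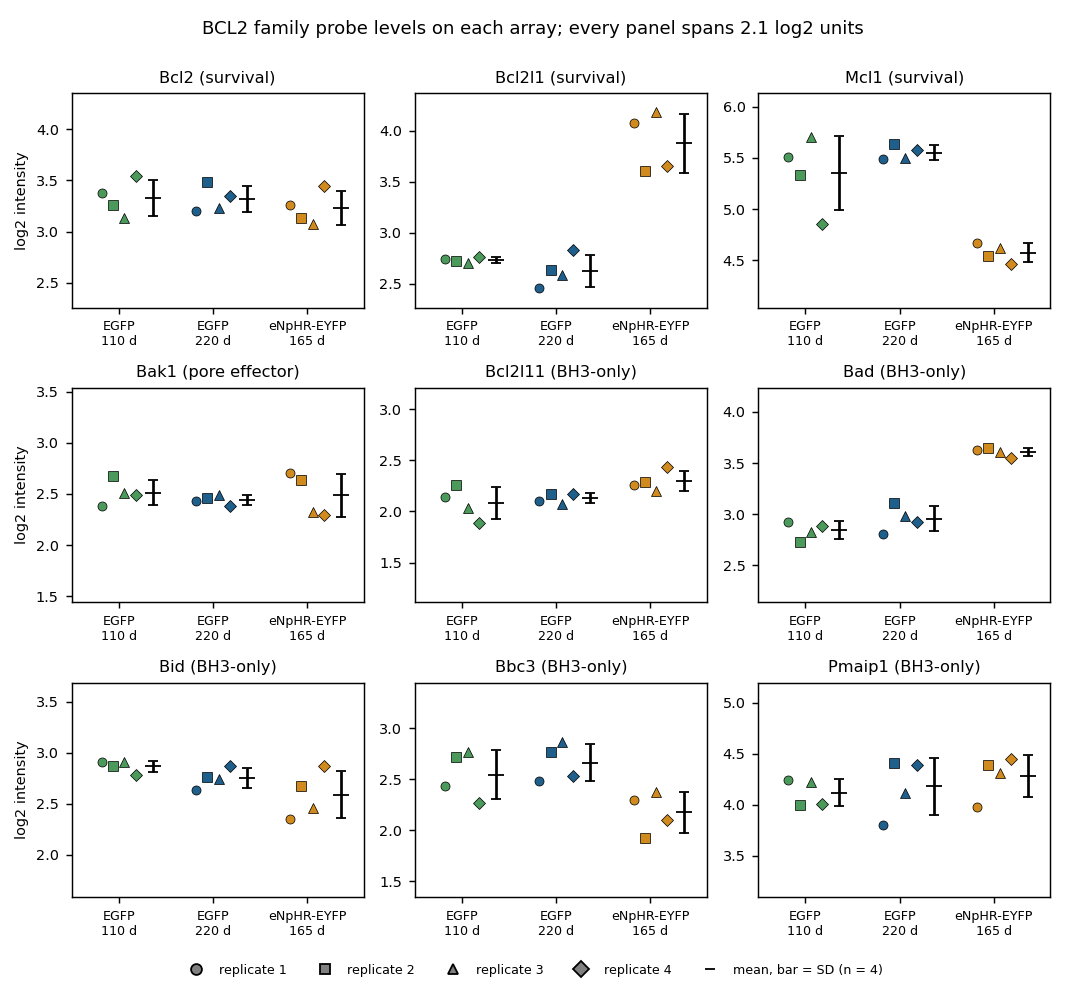
Log2 probe intensity of the 9 members on each of the 12 arrays, with 1 panel per gene and marker shapes for the replicates. Black bars give the group mean with its SD (n = 4). The eNpHR-EYFP arrays stand above all EGFP arrays for Bcl2l1 and Bad and below them for Mcl1, and overlap them for the other 6 members.

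Bcl2l1, the survival gene whose protein BCL-XL is abundant in mature neurons, had the largest difference of the 9 members. Its intensity was 6.7, 6.6, 6.5 and 6.8 on the EGFP arrays at 110 days, 5.5, 6.2, 6.0 and 7.1 at 220 days, and 16.8, 12.2, 18.1 and 12.6 with eNpHR-EYFP, in the order of replicates 1 to 4. The lowest eNpHR-EYFP array was thus above the highest EGFP array, and the eNpHR-EYFP arrays lay in 2 pairs, replicates 1 and 3 above replicates 2 and 4. The log2 level was 2.73 ± 0.03 at 110 days, 2.63 ± 0.15 at 220 days and 3.88 ± 0.29 with eNpHR-EYFP (SD, n = 4 each). The log2 difference was 1.20 ± 0.12 (SE; limma adjusted p = 3.52e-05), 2.29-fold higher with a 95% confidence interval of 1.92 to 2.74. This is a ratio of intensities whose EGFP side is dim and not known to exceed background, and its interval covers the spread of the arrays alone.

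Mcl1, a survival gene whose RNA and protein turn over quickly, went the other way. Its intensity was 45.5, 40.2, 52.2 and 29.0 at 110 days, 44.9, 49.8, 45.1 and 47.9 at 220 days, and 25.5, 23.2, 24.5 and 22 with eNpHR-EYFP. All eNpHR-EYFP arrays lay below all EGFP arrays, and the nearest EGFP array was replicate 4 at 110 days, which is 1 of the 2 arrays of that age with a low Arr3 level. The log2 level was 5.35 ± 0.36 at 110 days, 5.55 ± 0.07 at 220 days and 4.57 ± 0.09 with eNpHR-EYFP (SD, n = 4 each). The log2 difference was -0.88 ± 0.13 (SE; limma adjusted p = 0.000523), 1.84-fold lower with a 95% confidence interval of 1.51 to 2.25.

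Bcl2, the founding survival gene of the family, had intensities of 10.4, 9.6, 8.8 and 11.7 at 110 days, 9.2, 11.2, 9.4 and 10.2 at 220 days, and 9.6, 8.8, 8.4 and 10.9 with eNpHR-EYFP. The 3 groups overlapped throughout. Its log2 difference of -0.10 ± 0.10 (SE; limma adjusted p = 0.534) had a 95% confidence interval of -0.32 to 0.13. It was the only member whose EGFP values stood beside the right probe as deposited, before the realignment described with the processing.

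Bak1, the one effector measured, encodes a pore-forming protein that sits on mitochondria. Its intensity was 5.2, 6.4, 5.7 and 5.6 at 110 days, 5.4, 5.5, 5.6 and 5.2 at 220 days, and 6.5, 6.2, 5.0 and 4.9 with eNpHR-EYFP, so the eNpHR-EYFP arrays spanned the EGFP range on both sides. Its log2 difference was 0.01 ± 0.10 (SE; limma adjusted p = 0.949), with a 95% confidence interval of -0.20 to 0.22.

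Bad, a BH3-only gene whose protein is kept from BCL-XL by phosphorylation and by 14-3-3 proteins, was higher with little spread. Its intensity was 7.6, 6.6, 7.1 and 7.4 at 110 days, 7.0, 8.6, 7.9 and 7.6 at 220 days, and 12.4, 12.5, 12.2 and 11.7 with eNpHR-EYFP. All 4 eNpHR-EYFP arrays lay within a narrow range above every EGFP array. The log2 level was 2.84 ± 0.09 at 110 days, 2.95 ± 0.12 at 220 days and 3.61 ± 0.04 with eNpHR-EYFP (SD, n = 4 each). The log2 difference was 0.71 ± 0.08 (SE; limma adjusted p = 5.75e-05), 1.64-fold higher with a 95% confidence interval of 1.46 to 1.83. The EGFP intensities of 6.6 to 8.6 lie close to the array medians, and whether they exceed background is not known.

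Bbc3, which encodes the p53-induced BH3-only protein PUMA, was lower with overlapping arrays. Its intensity was 5.4, 6.6, 6.8 and 4.8 at 110 days, 5.6, 6.8, 7.3 and 5.8 at 220 days, and 4.9, 3.8, 5.2 and 4.3 with eNpHR-EYFP. Replicates 1 and 3 with eNpHR-EYFP lay above the lowest EGFP array, replicate 4 at 110 days. The log2 difference was -0.43 ± 0.13 (SE; limma adjusted p = 0.0247), 1.35-fold lower with a 95% confidence interval of 1.11 to 1.63. This call rested on single arrays, since without eNpHR-EYFP replicate 2 the difference was -0.35 (adjusted p = 0.0860) and without replicate 4 it was -0.41 (adjusted p = 0.0593). Its probe stands 19 lines from the nearest place where the EGFP values change their offset, the closest of the members, against 167 for Bcl2l1 and 314 or more for the others.

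The remaining BH3-only genes did not pass. Bcl2l11, whose protein BIM binds all survival members, had intensities of 4.4, 4.8, 4.1 and 3.7 at 110 days, 4.3, 4.5, 4.2 and 4.5 at 220 days, and 4.8, 4.9, 4.6 and 5.4 with eNpHR-EYFP, with a log2 difference of 0.19 ± 0.08 (SE; limma adjusted p = 0.106). Bid, which links death receptors to mitochondria after caspase cleavage, read 7.5, 7.3, 7.5 and 6.9 at 110 days, 6.2, 6.8, 6.7 and 7.3 at 220 days, and 5.1, 6.4, 5.5 and 7.3 with eNpHR-EYFP, a difference of -0.22 ± 0.10 (SE; limma adjusted p = 0.117). In both genes the eNpHR-EYFP arrays overlapped the EGFP arrays. Without eNpHR-EYFP replicate 4, the array with the highest Bid level of its group, the Bid difference was -0.31 and passed (adjusted p = 0.0258). Pmaip1, whose protein NOXA binds MCL1, read 18.9, 16, 18.7 and 16.1 at 110 days, 14.0, 21.2, 17.3 and 21.0 at 220 days, and 15.8, 20.9, 19.8 and 21.8 with eNpHR-EYFP. Its difference was 0.13 ± 0.13 (SE; limma adjusted p = 0.497; 95% confidence interval -0.15 to 0.41), and under quantile normalization it was -0.051.

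Read by class, neither the survival nor the death genes moved one way. The 3 survival genes had 1 member higher, 1 lower and a median log2 difference of -0.10, and the 5 BH3-only genes had 1 higher, 1 lower and a median of 0.13, against 0.07 over all genes. Under quantile normalization the BH3-only median was -0.051. On each array, with every gene centred on its EGFP mean, the mean of the survival genes was -0.06 to 0.18 on the eNpHR-EYFP arrays and -0.10 to 0.10 on the EGFP arrays. The same mean of the 5 BH3-only genes was -0.01 to 0.17 with eNpHR-EYFP and -0.15 to 0.13 with EGFP. Survival minus BH3-only means on the eNpHR-EYFP arrays were 0.19, -0.13, 0.06 and -0.13, 2 above and 2 below 0, around EGFP values of -0.09 to 0.05. Class means thus covered differences between members that were larger than the spread of the arrays: Bcl2l1 minus Mcl1, centred in the same way, was 1.84 to 2.33 with eNpHR-EYFP (2.08 ± 0.22, SD, n = 4) and -0.26 to 0.68 with EGFP. Bad minus Bbc3 was 0.94 to 1.42 with eNpHR-EYFP and -0.29 to 0.33 with EGFP. These pairs were chosen after their values were seen and are a description.

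Set against each EGFP age, the same direction was seen for the 4 called members. Against EGFP at 110 days the log2 difference was 1.14 for Bcl2l1 (limma adjusted p = 0.000181), -0.78 for Mcl1 (0.00348) and 0.77 for Bad (0.000142), while Bbc3 at -0.37 did not pass (0.0886). Here 28.0% of all genes were called. Against EGFP at 220 days the differences were 1.25 for Bcl2l1 (limma adjusted p = 0.000121), -0.98 for Mcl1 (0.00108), 0.65 for Bad (0.000423) and -0.49 for Bbc3 (0.0336), with 25.2% of all genes called. Both comparisons share the eNpHR-EYFP arrays and are not independent of each other. For Bbc3 the call depended on single arrays in both. Against 110 days it passed without replicate 4 of that age, at -0.46 (adjusted p = 0.0462), and with the mean of cone genes as a covariate, at -0.61 (0.0177). Against 220 days it was lost without EGFP replicate 2 (-0.45, 0.0846) or 3 (-0.42, 0.0930) and without eNpHR-EYFP replicate 2 (-0.41, 0.0890) or 4 (-0.46, 0.0673). For Bid against 110 days, the difference without eNpHR-EYFP replicate 4 was -0.37 and passed (0.0229).

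**Figure D2:**
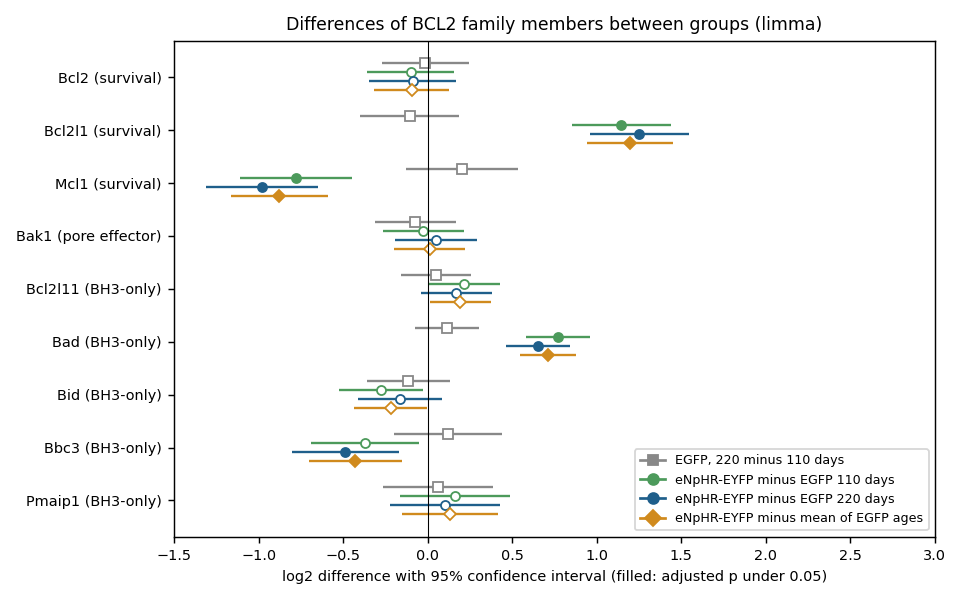
Log2 differences of the 9 members in 4 comparisons, with 95% confidence intervals from limma. Filled symbols have an adjusted p under 0.05. Bcl2l1 and Bad lie right of 0 and Mcl1 left of 0 in each comparison with eNpHR-EYFP, and no member is filled for 220 minus 110 days.

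Between the EGFP ages no member passed. Differences of 220 minus 110 days ran from -0.11 for Bid and Bcl2l1 to 0.20 for Mcl1, with limma adjusted p from 0.849 to 0.992. For 0 of 9 members did the 4 arrays of one age lie on one side of the other age's, where 3.87% of all genes were so placed. Of all 34615 probes, 0 passed in limma (0%), and 2331 had an unadjusted p under 0.05. The intervals still leave room for changes: they ran from -0.13 to 0.53 for Mcl1, from -0.40 to 0.19 for Bcl2l1 and from -0.08 to 0.30 for Bad.

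Other genes of the family and its pathway were read from lists named in the same way. Of 48 measured, 14 were higher and 6 lower in limma against the mean of both EGFP ages, with a median log2 difference of 0.15 against 0.07 over all genes, where 33.1% of all genes were called, 23.0% higher and 10.1% lower. Under quantile normalization the split was 8 higher and 7 lower. Over all probes that setting moved the share of higher calls among called probes from 66.8% to 51.5%.

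Of 3 other survival genes none passed: Bcl2l2, which encodes BCL-W, stood at -0.06, Bcl2l10 at 0.40 and Bcl2a1c at -0.28. Bcl2a1c passed without EGFP replicate 4 at 110 days, at -0.36 (limma adjusted p = 0.0129). Of 4 other death genes 2 were lower, where 10.1% of all genes were called lower, and both encode BH3-only proteins. Hrk, known for its part in the death of neurons deprived of trophic factors, read 30.7, 38.5, 28.0 and 32.7 at 110 days, 29.5, 31.5, 34.7 and 31.6 at 220 days, and 25.6, 24.1, 27.1 and 24.6 with eNpHR-EYFP. Its 4 eNpHR-EYFP arrays lay below every EGFP array, with a log2 difference of -0.34 ± 0.09 (SE; limma adjusted p = 0.0162), or -0.61 under quantile normalization. Bmf, held at the cytoskeleton until cells detach or are stressed, read 11.8, 10.6, 11.4 and 11.8 at 110 days, 9.5, 9.5, 11.4 and 11.3 at 220 days, and 8.9, 7.9, 9.5 and 9.5 with eNpHR-EYFP. Its eNpHR-EYFP arrays were at or below the lowest EGFP arrays, 2 of them at the same value,, and its difference was -0.29 ± 0.09 (SE; limma adjusted p = 0.0278). The Bmf call was lost without eNpHR-EYFP replicate 1 (-0.28, adjusted p = 0.0633) or 2 (-0.23, 0.0952). Bik, at -0.19, did not pass (0.0824), and did without EGFP replicate 3 at 110 days (-0.22, 0.0489).

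Bok, an effector relative that forms pores without needing BAX or BAK1, read 35.1, 34.8, 27.1 and 30.9 at 110 days, 32.7, 23.1, 19.1 and 32.2 at 220 days, and 55.1, 56.3, 57.8 and 22.6 with eNpHR-EYFP. Of the 4 eNpHR-EYFP arrays, 3 were above every EGFP array and replicate 4 was among the lower ones. The difference of 0.64 ± 0.25 did not pass (SE; limma adjusted p = 0.0779), and without replicate 4 it was 0.97 and passed (0.00160). Under quantile normalization the Bok difference was 0.30 (0.363).

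Of 8 further genes related to BCL2, 3 were higher and 0 lower, or 2 higher and 1 lower under quantile normalization. As deposited, 23.0% of all genes were called higher and 10.1% lower. Bcl2l13, which encodes a mitochondrial protein with BCL2 homology, read 5.2, 5.3, 6.3 and 4.5 at 110 days, 5.4, 5.5, 5.1 and 6.4 at 220 days, and 8.3, 7.2, 8.1 and 7.3 with eNpHR-EYFP. Its eNpHR-EYFP arrays lay above every EGFP array, with a difference of 0.51 ± 0.10 (SE; limma adjusted p = 0.00299), and all 22 alternatives kept the call. On all 8 EGFP arrays Bcl2l13 was below the array's median, so its EGFP side is dim and not known to exceed background. Bnip3l, a receptor for the removal of mitochondria, was higher by 0.43 ± 0.13 (SE; limma adjusted p = 0.0238), but stood at -0.083 under quantile normalization (0.619) and at 0.21 over the mean of its probes (0.590), and lost the call without eNpHR-EYFP replicate 1 (0.36, 0.0824), 2 (0.43, 0.0516) or 3 (0.39, 0.0733). Its relative Bnip3 was at -0.59 and did not pass (0.0860). It passed in 3 of 23 alternatives: under quantile normalization (-0.96, 0.00869) and without eNpHR-EYFP replicate 1 (-0.78, 0.0389) or 2 (-0.79, 0.0328). Over all alternatives the Bnip3 difference ran from -0.96 to -0.027, with adjusted p up to 0.936. With the mean of cone genes as a covariate it was -0.35 (0.436). Bcl2l14 was at 0.22 (limma adjusted p = 0.0451) and lost the call in 10 of the 12 fits without 1 array, with adjusted p up to 0.135, keeping it without EGFP replicate 4 at 110 days or EGFP replicate 3 at 220 days. The other 4, Bcl2l12, Bcl2l15, Bnip2 and Bnipl, lay between -0.13 and 0.14 and did not pass.

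**Figure D3:**
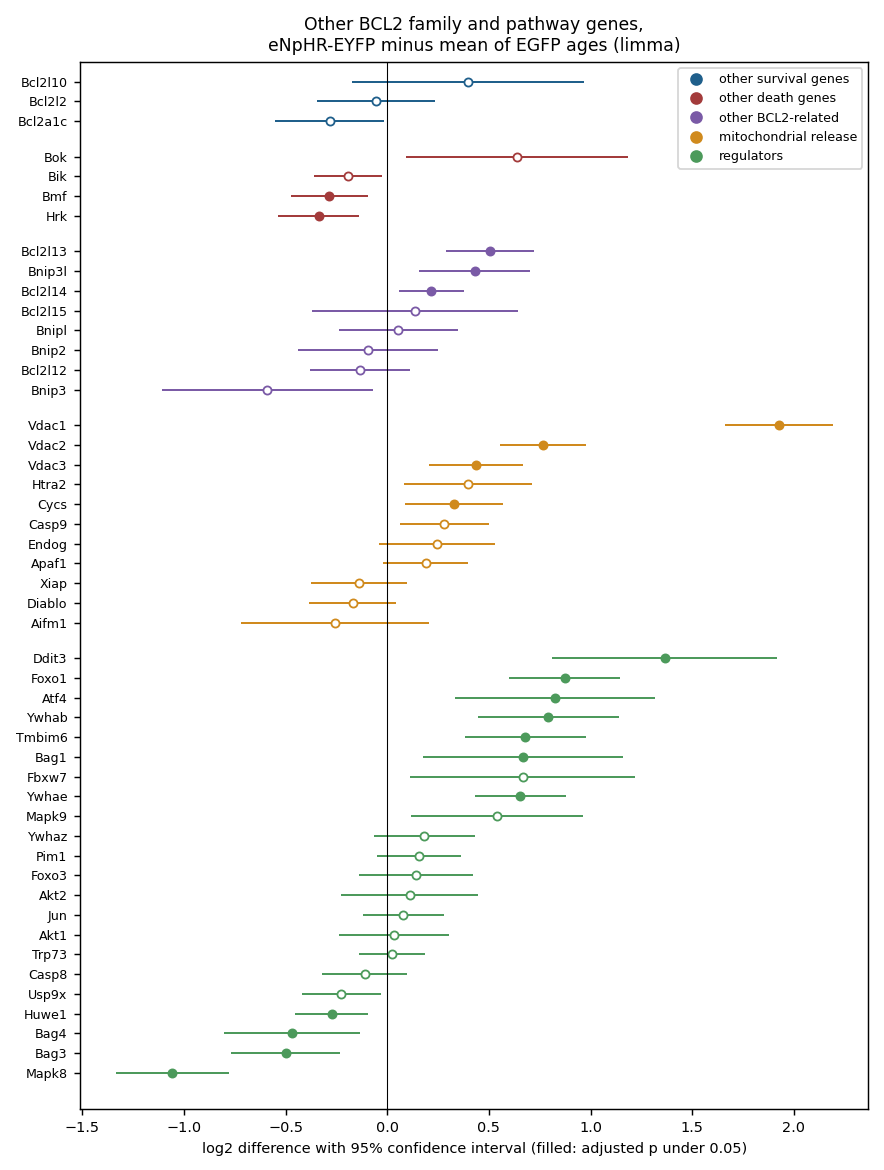
Log2 differences between eNpHR-EYFP and the mean of both EGFP ages for other BCL2 family genes, genes of mitochondrial release and regulators of the members, with 95% confidence intervals from limma. Filled points have an adjusted p under 0.05. Vdac1 stands farthest right and Mapk8 farthest left. Of the filled points right of 0, Vdac3, Cycs and Bnip3l lie below 0 under quantile normalization, as do some of the open points right of 0.

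Downstream of the members, 4 of 11 measured genes of mitochondrial release and the apoptosome were higher and 0 lower, or 2 higher and 0 lower under quantile normalization, where 23.0% of all genes were higher as deposited. They include the voltage-dependent anion channels, the porins of the outer mitochondrial membrane. Vdac1 read 16.5, 18.0, 12.2 and 12.7 at 110 days, 18.6, 17, 16.7 and 18.0 at 220 days, and 73.6, 55.1, 60.1 and 56.6 with eNpHR-EYFP. The groups were far apart, with a log2 difference of 1.93 ± 0.12 (SE; limma adjusted p = 3.38e-06), 3.80-fold higher. Vdac2, whose protein also binds BAK1, read 759.4, 739.2, 774.4 and 572.1 at 110 days, 921.4, 765.9, 772.5 and 869.0 at 220 days, and 1365.8, 1303.7, 1219.0 and 1317.8 with eNpHR-EYFP. Its difference was 0.76 ± 0.10 (SE; limma adjusted p = 0.000185), and 0.33 (0.0204) under quantile normalization. Vdac3 at 0.44 and Cycs, which encodes cytochrome c, at 0.33 passed as deposited (0.00900 and 0.0455) but stood at -0.058 and -0.13 under quantile normalization (0.742 and 0.325). The Cycs call was also lost in 9 of the 12 fits without 1 array, with adjusted p up to 0.134, and was kept without EGFP replicate 2 or 3 at 110 days or eNpHR-EYFP replicate 1. Apaf1 and Casp9, the apoptosome's scaffold and its caspase, stood at 0.19 and 0.28 and did not pass, although Casp9 passed without EGFP replicate 3 at 110 days (0.33, limma adjusted p = 0.0150) and in both other choices of probes (0.0417 and 0.0402).

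Among 22 measured regulators of the members, 7 were higher and 4 lower, where 23.0% of all genes were higher and 10.1% lower, and under quantile normalization 4 were higher and 4 lower. The 3 calls lost on the higher side there were Atf4 (0.82 as deposited and 0.33 under quantile normalization, adjusted p = 0.279), Tmbim6 (0.68 and 0.32, 0.0647) and Bag1 (0.67 and 0.20, 0.551). As deposited, Tmbim6 kept its call in all 12 fits without 1 array and Bag1 in 4 of them. Atf4 lost its call without eNpHR-EYFP replicate 3 (0.78, 0.0534) or 4 (0.63, 0.0556). Ddit3, the stress factor CHOP, which is known to act on BH3-only genes, read 64.0, 113.9, 94.0 and 63.6 at 110 days, 58.1, 62.9, 58.4 and 74.9 at 220 days, and 136.8, 122.2, 210.8 and 328.5 with eNpHR-EYFP. Every eNpHR-EYFP array was above every EGFP array, although they differed widely among themselves. The log2 difference of Ddit3 was 1.36 ± 0.25 (SE; limma adjusted p = 0.00203), or 0.87 (0.0214) under quantile normalization. With the mean of cone genes as a covariate it was 0.85 (0.0168). Foxo1, a forkhead factor of the kind whose motif is in the Bbc3 and Bcl2l11 windows above, read 14.5, 14.5, 12.7 and 11.4 at 110 days, 11.6, 10.2, 13.1 and 15.4 at 220 days, and 26.6, 23.8, 24.6 and 19.4 with eNpHR-EYFP. Its difference was 0.87 ± 0.13 (SE; limma adjusted p = 0.000425), and the related Foxo3 at 0.14 did not pass (0.451). Ywhae and Ywhab, 2 of the 14-3-3 proteins that hold phosphorylated BAD, were higher by 0.65 ± 0.10 (adjusted p = 0.000728) and 0.79 ± 0.16 (0.00324), and by 0.60 and 0.41 under quantile normalization. Their relative Ywhaz, at 0.18, did not pass (0.267), and stood at -0.32 under quantile normalization (0.0936).

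Mapk8, the kinase JNK1, which phosphorylates several members, was the largest fall of the regulators. It read 14.6, 15.9, 12.1 and 15 at 110 days, 15, 15.5, 13.5 and 19.3 at 220 days, and 8.2, 8.2, 6.9 and 5.8 with eNpHR-EYFP. The eNpHR-EYFP arrays lay below every EGFP array, and the difference was -1.06 ± 0.13 (SE; limma adjusted p = 0.000130), 2.08-fold lower. Its relative Mapk9 was at 0.54 and did not pass (0.0572), but passed in 7 of 24 alternatives, among them the fits without EGFP replicate 3 at 110 days (0.60, 0.0429) and without eNpHR-EYFP replicate 3 (0.70, 0.0261) or 4 (0.67, 0.0340). Bag3, a co-chaperone that binds BCL2, was lower by a log2 difference of -0.50 ± 0.12 (adjusted p = 0.0103), and Bag4 by -0.47 ± 0.15 (0.0404). Huwe1, a ubiquitin ligase that removes MCL1, was lower at -0.27 ± 0.08 (0.0280). The Bag4 call was lost in 8 of the 12 fits without 1 array (adjusted p up to 0.0975), those that left out EGFP replicate 2 or 3 at 110 days, EGFP replicate 1 or 2 at 220 days or any eNpHR-EYFP array, and the Huwe1 call without eNpHR-EYFP replicate 1 (0.0552), 2 (0.0760) or 3 (0.0645). Between the EGFP ages 0 of these 48 genes passed in limma.

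The genes whose level pattern was most like that of a called member were sought among 16930 genes, as those with the smallest mean absolute difference of centred log2 levels over the 12 arrays. For Bcl2l1 they were Rbm34 at 0.0838 and Cul3 at 0.103, for Mcl1 Sidt1 at 0.111 and Scamp1 at 0.120, and for Bad Pgap6 at 0.0612 and Cbarp at 0.0637, each in log2 units. The choice itself fixes that such a gene follows its member in direction; the log2 differences were 1.16 and 1.27 for Rbm34 and Cul3, -0.99 and -0.83 for Sidt1 and Scamp1, and 0.62 and 0.70 for Pgap6 and Cbarp. The likeness is a description of these 12 arrays.

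Marker genes of cones and of other retinal cells also moved between the groups, and the members were set beside them. The mean log2 level of 19 measured cone genes ranged from 4.19 to 6.08 with EGFP and from 5.60 to 6.69 with eNpHR-EYFP. Of these genes 6 were called higher and 3 lower, where 23.0% of all genes were called higher and 10.1% lower. Means of other lists on the EGFP and on the eNpHR-EYFP side were 3.86 to 4.65 and 4.34 to 4.96 for 10 rod genes, 4.99 to 6.0 and 5.75 to 6.92 for 10 Müller glia genes, 4.30 to 5.42 and 4.69 to 5.22 for 8 bipolar genes, 4.0 to 5.39 and 4.45 to 5.31 for 8 amacrine genes, and 2.92 to 3.49 and 3.09 to 4.16 for 4 horizontal cell genes. The ranges did not overlap for 6 ganglion cell genes (3.03 to 3.22 and 3.53 to 3.91, 4 called higher) and 9 microglia and macrophage genes (2.40 to 2.73 and 2.76 to 2.84, 4 called higher). These are list means, and of single genes 14.2% lay above all EGFP arrays. For 4 pigment epithelium genes the means were 2.33 to 2.62 and 2.6 to 2.74, and for 4 endothelial genes 2.39 to 2.71 and 2.28 to 2.45. Calls in the other lists were 3 higher and 1 lower for rod genes and 2 and 0 for Müller glia genes. They were 1 and 1 for bipolar, 3 and 0 for amacrine and 1 and 1 for horizontal cell genes. For pigment epithelium genes they were 2 and 0, and for endothelial genes 0 and 0. Of the ganglion cell genes Rbpms, Sncg, Nefl and Thy1 were called higher, by log2 differences of 0.78, 0.77, 0.86 and 0.96, while Pou4f1 at 0.16 and Nefm at 0.46 did not pass. Of the microglia and macrophage genes Tyrobp, Csf1r, C1qb and Aif1 were called higher, by 0.93, 0.41, 0.33 and 0.27, while Cd68 at 0.38, Cx3cr1 at 0.16, C1qa at 0.032, P2ry12 at -0.028 and H2-Aa at -0.12 did not pass. The part of these cells in the members' differences was not tested.

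The differences of the called members were also fitted with the cone signal of each array taken into account. With the mean of the 19 cone genes as a covariate, the log2 difference was 1.18 for Bcl2l1 (limma adjusted p = 0.000659), 0.75 for Bad (0.000603), -1.0 for Mcl1 (0.00209) and -0.64 for Bbc3 (0.00613). Without the 3 EGFP arrays lowest in Arr3, which are replicates 1 and 4 at 110 days and replicate 1 at 220 days, it was 1.18, 0.72, -0.97 and -0.56 in the same order, and the 4 genes passed. In these fits some calls among the other family and pathway genes named above were lost. With the covariate they were Bmf at -0.32 (adjusted p = 0.0704), Bcl2l14 at 0.19 (0.187) and Vdac3 at 0.43 (0.0504). Huwe1 at -0.20 (0.196), Bag1 at 0.71 (0.119) and Bag3 at -0.46 (0.0678) were lost too. All of these stood within 0.1 of their log2 difference without the covariate. Cycs at 0.14 (0.419) and Atf4 at 0.35 (0.201) also lost the call, and were 0.33 and 0.82 without the covariate. Bok passed with the covariate at 0.92 (0.0490). Without the 3 arrays the calls lost were Bmf (0.0800), Bcl2l14 (0.109), Cycs (0.156), Atf4 (0.0661), Huwe1 (0.0848), Bag1 (0.0556) and Bag3 (0.0673). There Bcl2a1c passed (0.0295). Under quantile normalization Bcl2l1 stood at 1.11, Bad at 0.66, Mcl1 at -1.16 and Bbc3 at -0.43, and each passed. The differences of Bcl2l1, Bad and Mcl1 passed in all 23 alternatives in which they were measured, between 1.1 and 1.29, 0.66 and 0.75, and -1.16 and -0.82.

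**Figure D4:**
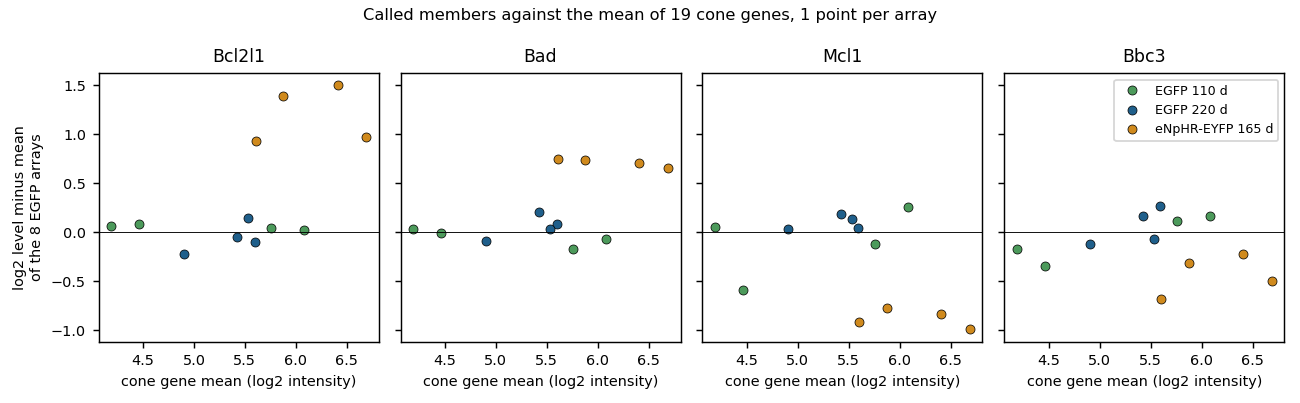
Log2 level of the 4 called members on each array, minus the mean of the 8 EGFP arrays, against the mean log2 level of 19 cone genes on the same array. Points are arrays, coloured by group. The cone levels that both constructs share, 5.605 to 6.078, hold only eNpHR-EYFP replicates 1 and 2 and EGFP replicates 2 and 3 at 110 days. No EGFP array at 220 days lies in that range. Among these few arrays the constructs stand apart for Bcl2l1, Bad, Mcl1 and Bbc3, although Bbc3 overlaps when all arrays are taken.

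**Figure D5:**
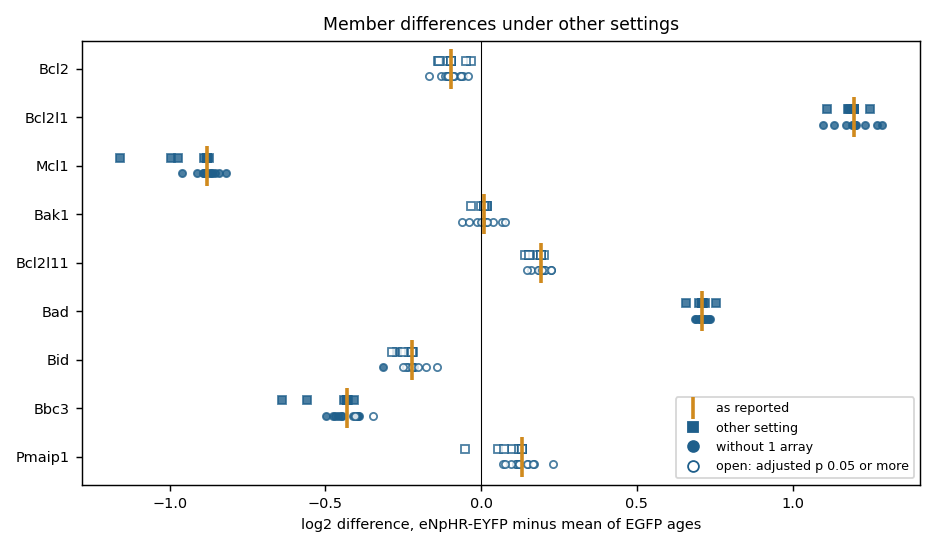
Log2 difference of each member between eNpHR-EYFP and the mean of both EGFP ages as reported (vertical bar) and under other settings (squares) or without 1 array (circles), with open symbols where the adjusted p is 0.05 or more. Bcl2l1, Bad and Mcl1 are filled throughout, and Bbc3 is open in 2 fits without 1 array.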

How the data were processed

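Per the labels, total RNA of sorted cones (PicoPure kit) was biotin-labelled and each sample was run on 1 Affymetrix array. The deposited table holds a linear intensity per probe and array, made with RMA and affy per the submitters' processing notes, with versions not given in the sources used here. From line 13588 the EGFP values stood 2 to 31 lines from their probes, because the EGFP columns hold 31 values fewer. They were realigned to the eNpHR-EYFP columns by a forward-backward algorithm (t distribution with 3 degrees of freedom, scale 0.25, 0.001 per lost line, posterior at least 0.999), which moved 21142 lines and left 34615 probes. Arrays of the 2 constructs had a median correlation of 0.421 before and 0.944 after this step. The realignment moved 8 of the 9 members and uses the likeness of both sets of arrays, so its accuracy between them is not known independently.

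Intensities were log2-transformed, without a pseudocount or a filter. Probes were named from the platform annotation (21640 name 1 gene, of which 21553 matched RefSeq). Groups were compared in limma 3.58.1 (R 4.3.3), 1 model of 3 groups, with Benjamini-Hochberg adjustment over all probes. The fit was tested on simulated data. All other family genes were named, and of the release and regulator lists up to 4 genes in each direction with the smallest p, plus relatives of these, the 3 regulators that lost their call under quantile normalization, Casp9 and Apaf1, chosen after their values were seen. Members, lists and named genes were chosen with earlier results of these data known. Alternatives were other normalizations, filters, variance priors, array weights, probe choices and alignments, a replicate block, a cone covariate, and fits without 1 array or without the 3 EGFP arrays lowest in Arr3. P-values measure the spread between these arrays.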

Additional observations from a re-analysis of the deposited data

How the results depend on the processing

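Over the alternatives, 3 to 5 of 9 members were called against the mean of both EGFP ages (4 as reported), 0 between the EGFP ages, 3 to 4 against 110 days (3) and 3 to 4 against 220 days (4). Among 48 other family and pathway genes, 20 were called against the mean of both ages, 19 against 110 days and 15 against 220 days. The shares of all genes called in these comparisons were 33.1%, 28.0% and 25.2%. With the cone covariate the counts among the 48 genes were 13, 9 and 7. Over all probes, 20.2% were then called against the mean of both ages. The count among the 48 genes against 110 days was 8 when the 3 EGFP arrays with the least Arr3 were left out. Without 1 array in turn the 3 counts were 14 to 20, 10 to 17 (fewest without eNpHR-EYFP replicate 1, and 11 without EGFP replicate 4 at 110 days) and 9 to 14 (fewest without EGFP replicate 2, 3 or 4 at 220 days). The BH3-only median of 0.13 was -0.051 under quantile normalization.

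Over all probes, the 9659, 8150 and 7263 calls became 2517, 2087 and 1743 on the 13584 lines that needed no realignment. Fewer probes were tested on these lines, and Bcl2 is the only member among them. The share called against the mean of both EGFP ages was lower there too, 18.5% against 27.9% over all probes. Why the share differs was not tested. When those 3 arrays were left out, 4591 probes were called against 110 days. Between the EGFP ages, where 0 probes were called, 1 was called with the cone covariate, 1 over one-gene probes, 1 in a fit of the EGFP groups alone, 1 without the 3 arrays, 2 over means of a gene's probes, and 0 to 1 without 1 array. Where no cause is given, it was not tested. The alternative alignment placed 0 of 34615 lines differently.

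Same-numbered arrays of different groups were only slightly more alike than others. Their deviations from the group means correlated from -0.04 to 0.14 (median 0.038) over 12 pairs, of which 2 exceeded 0.1. For arrays with different numbers the range was -0.18 to 0.12 (median -0.015) over 36 pairs, of which 4 exceeded 0.1. With the replicate number as a block, 4 members were called (2 higher, 2 lower), 17 of the 48 other genes and 9258 probes, and Bcl2l1 kept its call (limma adjusted p = 0.000435).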
